A study of Mus musculus with 9 samples.

Results

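The chromosome 19 neighbours of Fas were the genes whose start lay between 29300000 and 39300000 on mouse chromosome 19 (GENCODE annotation, build GRCm38), with the biotype protein_coding or lincRNA and a summed count of at least 10 over all 9 hippocampal RNA-seq libraries. Fas itself, Il33 and every gene whose symbol begins with Ifit were left out. The rule found 63 members among 47643 genes of the count matrix, of which 62 were protein_coding and 1, A830019P07Rik, was a lincRNA. Members were thus chosen by position, by the count summed over all libraries and by name, with earlier results of these data known. Ifit1, which was left out by name, itself differed between MRL/lpr and MRL/mpj by the test used below.

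Fas encodes a death receptor through which lymphocytes are triggered to undergo apoptosis, and the lpr allele is an insertion in this gene that leaves the receptor defective. MRL/lpr mice carry it on the MRL background and develop lymphoproliferation and lupus-like autoimmunity, and MRL/mpj mice serve as their controls without the allele. Genes that lie close together on a chromosome tend to be inherited together, so sequence near a selected allele can travel with it. Whether the sequence around Fas differs between MRL/lpr and MRL/mpj was not tested. The neighbours have no common function: they include lipases, enzymes of sphingolipids and inositols, immune checkpoint ligands, a serotonin receptor and mitotic motors.

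The study compared the hippocampus of MRL/mpj, MRL/lpr and stem-cell-treated MRL/lpr animals, with 3 libraries in each group and all mice at postnatal week 6. The cells given were mesenchymal stem cells, and that group is called MRL/lpr+MSC. MRL/mpj and MRL/lpr animals are labelled untreated, while the design text names PBS for the MRL/lpr controls. All 9 labels give the strain as C57BL/6, against the MRL names in the design text, and the lpr allele is shared by the 6 libraries of the MRL/lpr and MRL/lpr+MSC groups. The route and source of the stem cells are not given in the sources used here. The study describes each MRL/mpj and MRL/lpr column of its hippocampal data as an individual mouse, and the labels do not say this of the MRL/lpr+MSC libraries. Its expression table names the MRL/lpr columns otherwise than GEO does, as given below. Which of the lpr groups the description covers is therefore uncertain.

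Total counts ran from 19475804 to 26912031 per library, and a count of 3 corresponded to 0.105 to 0.163 CPM (read counts scaled to a common library size). In the study's own expression table, the columns named MRL/lpr were constant multiples of the libraries that GEO labels MRL/lpr+MSC, so the groups below keep GEO's labels and the level of a gene that differs between those groups belongs to the libraries so labelled. Hippocampal excitatory neuron markers (all 6 detected) had a summed level of 893 to 1104 CPM in MRL/mpj, 555 to 761 CPM in MRL/lpr and 643 to 802 CPM in MRL/lpr+MSC. Choroid plexus markers (6 detected) ranged from 98.8 to 9579 CPM, with MRL/lpr replicate 2 highest, and their part in the results was not tested. In bulk tissue, fewer cells of a type and less RNA per cell cannot be told apart. Fas had 40, 43 and 30 counts in MRL/mpj, 65, 31 and 42 in MRL/lpr and 19, 24 and 41 in MRL/lpr+MSC, so its whole-gene count did not separate the genotypes.

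Of the 63 members, 51 passed the filter on low counts in all 3 comparisons, 1 (Cep55) passed only in MRL/lpr+MSC against MRL/lpr, and 11 passed in none. The members just inside the minimum were Lipo2 and Ffar4, with 12 summed counts each, and Cyp26a1, with 16. Just outside it lay Ankrd22 and I830134H01Rik, with 6 each, and Cyp2c65, with 4. Per length, Atad1, an AAA-ATPase that regulates synaptic AMPA receptors, stood highest at a mean of 44.7 FPKM over the 9 libraries, followed by Cstf2t at 28.1 FPKM and March5 at 25.9 FPKM. Lipo2 stood lowest at 0.018 FPKM. Tnks2, Lgi1, Atad1 and Ermp1 were among the 5 members with the highest read levels.

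In MRL/lpr against MRL/mpj, 2 of 51 members were called, that is, changed at an adjusted p under 0.05 and at least 1.5-fold (limma voom, Benjamini-Hochberg adjustment over all genes). Over all 16697 genes tested the share called was 5.79%, and the members' share was 3.92%. Both called members, Lipa and Kif11, were higher in MRL/lpr. The median log2 fold change was 0.01 over the members and 0.02 over all genes, and 26 members were above 0 and 25 below. A change of at least 1.5-fold in either direction was seen in 8 of 51 members, against 20.6% of all genes, and 17 members were under an unadjusted p of 0.05, against 30.4%.

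**Figure D1:**
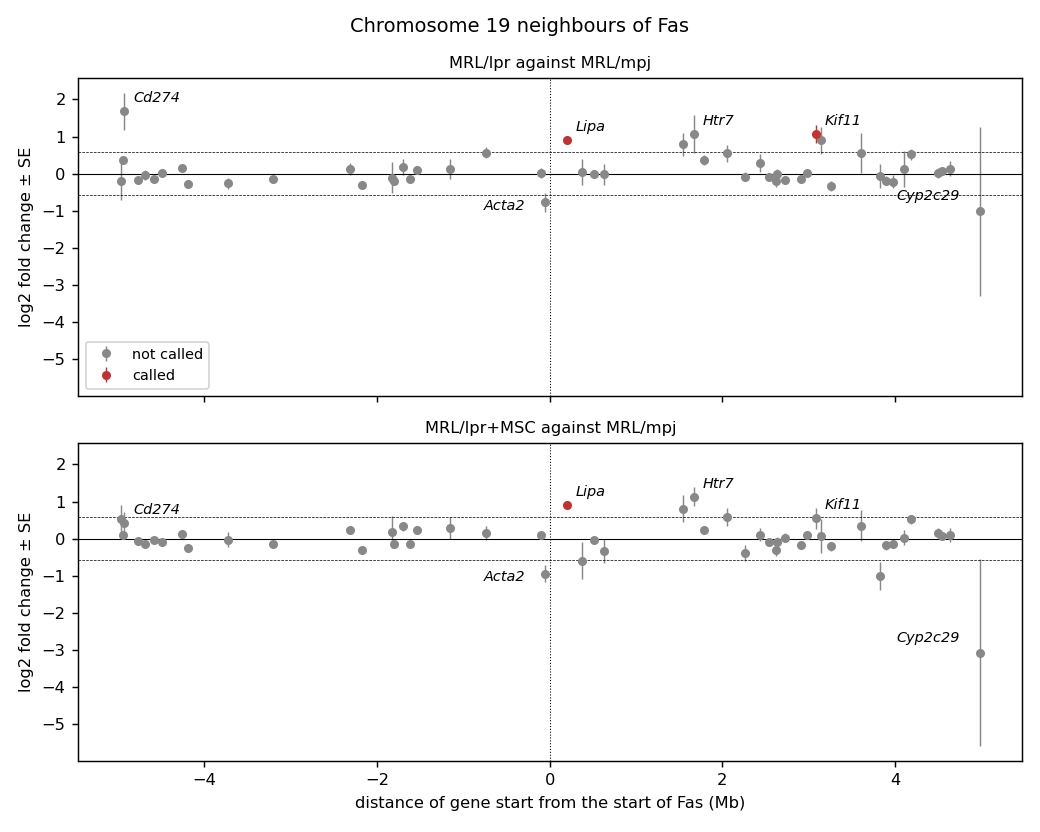
Log2 fold change with its standard error (vertical axis) of the 51 tested members against distance of the gene start from the Fas start in Mb (horizontal axis), for MRL/lpr and MRL/lpr+MSC, each against MRL/mpj. Red points were called, dashed lines mark 1.5-fold, and most members lie near 0 on both sides of Fas, with Lipa at 0.90 and 0.92.

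Lipa encodes lysosomal acid lipase, which frees fatty acids and cholesterol from lipids taken into the lysosome. It lies 0.20 Mb from the Fas start on the minus strand (chr19:34492318-34527474) and was the nearest tested member on the side of increasing coordinates. Its counts were 351, 508 and 362 in MRL/mpj, 982, 923 and 867 in MRL/lpr, and 734, 846 and 775 in MRL/lpr+MSC. As CPM these were 17.5, 21.8 and 19.7, then 34.3, 39.7 and 36.6, then 38.1, 39.3 and 34.3. Every library that carries lpr was above every MRL/mpj library. The mean was 19.7 ± 2.16 CPM (SD, n = 3) in MRL/mpj, 36.9 ± 2.73 in MRL/lpr and 37.2 ± 2.62 in MRL/lpr+MSC. Lipa rose 1.87-fold in MRL/lpr (log2 fold change 0.90, SE 0.11, limma voom adjusted p = 0.0077). It rose 1.89-fold in MRL/lpr+MSC (log2 fold change 0.92, SE 0.11, limma voom adjusted p = 0.0061). These 2 comparisons share the MRL/mpj libraries.

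Lipa did not pass the test in MRL/lpr against MRL/mpj when MRL/mpj replicate 3 was left out (adjusted p = 0.0536, log2 fold change 0.91), nor in either comparison when the test was made against a 1.5-fold change. Microglia, which hold much of the lysosomal machinery of the brain, had summed marker levels of 314 to 352 CPM in MRL/mpj, 267 to 364 CPM in MRL/lpr and 266 to 304 CPM in MRL/lpr+MSC (6 markers). Of these, 2 had a positive log2 fold change in MRL/lpr and 0 in MRL/lpr+MSC, and C1qa had 53.0, 44.4 and 53.3 CPM in MRL/mpj and 82.4, 58.8 and 48.0 in MRL/lpr. The part of microglia in the Lipa values was not tested. No other annotated gene shared exon bases with Lipa.

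Kif11, the mitotic kinesin that pushes spindle poles apart, lies 3.09 Mb from the Fas start on the plus strand (chr19:37376403-37421859). It had 26, 32 and 32 counts in MRL/mpj, 105, 63 and 66 in MRL/lpr and 32, 62 and 45 in MRL/lpr+MSC. All 3 MRL/lpr libraries were above all MRL/mpj libraries, while MRL/lpr+MSC replicate 1 fell among the controls. The mean was 1.47 ± 0.237 CPM (SD, n = 3) in MRL/mpj, 3.06 ± 0.532 in MRL/lpr and 2.18 ± 0.63 in MRL/lpr+MSC. Kif11 rose 2.09-fold in MRL/lpr (log2 fold change 1.06, SE 0.24, limma voom adjusted p = 0.0422). Against MRL/mpj, the log2 fold change in MRL/lpr+MSC was 0.55 (SE 0.28, adjusted p = 0.294). The difference between MRL/lpr+MSC and MRL/lpr was -0.51 on the log2 scale, with a 95% interval from -1.14 to 0.12. The call was lost without MRL/lpr replicate 1 (adjusted p = 0.104) and without MRL/mpj replicate 1, 2 or 3 (0.144, 0.138 and 0.116). It was lost in 7 of 13 other settings in all.

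**Figure D2:**
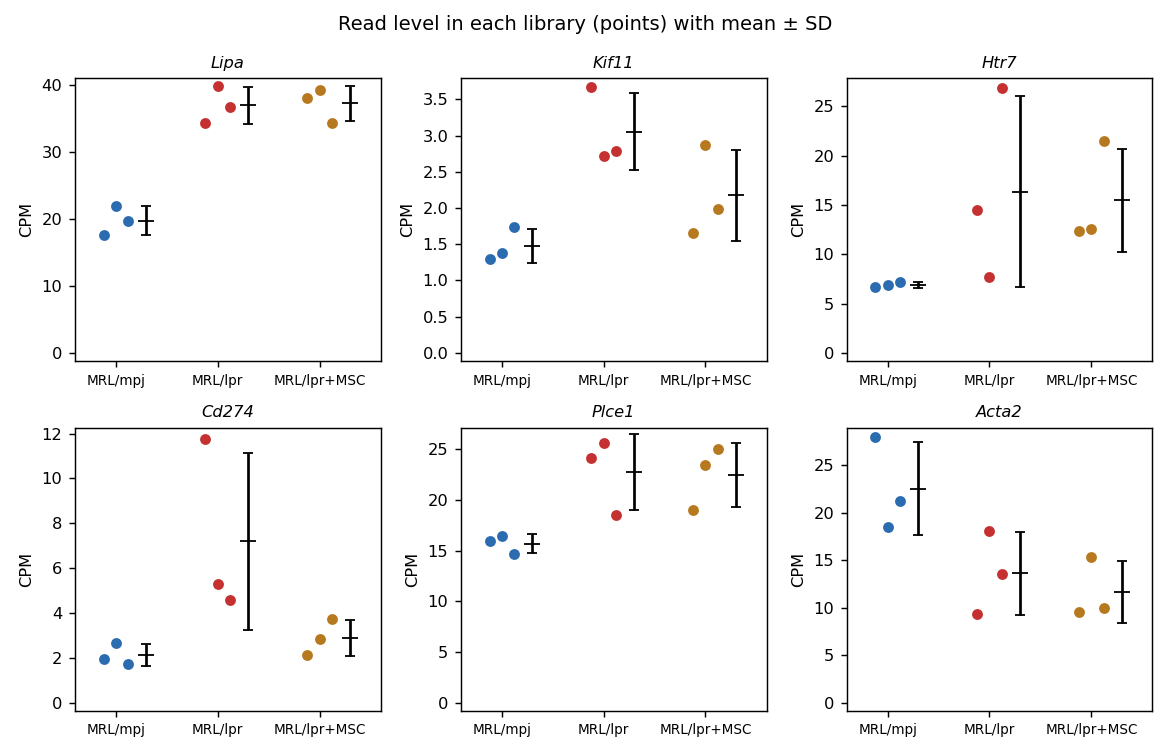
Read level in CPM (vertical axis, from 0) of 6 members in each of the 9 libraries (points), by group, with the group mean and SD beside them (n = 3). Lipa is separated by genotype in all libraries, Kif11 and Cd274 in MRL/lpr but not in MRL/lpr+MSC, and Acta2 is lower in all 6 libraries that carry lpr.

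The promoters of the called members are shown because they are the sequence nearest to where their transcription starts, as RefSeq gives it for GRCm38.p6, from 250 bases before the start to 50 after it. Capitals mark TTTGAA on either strand (TTCAAA on the other), the core of the element that cell cycle genes carry near their start. Both windows are 300 bases long, at chr19:34527425-34527724 on the minus strand for Lipa and chr19:37376132-37376431 on the plus strand for Kif11.
Lipa: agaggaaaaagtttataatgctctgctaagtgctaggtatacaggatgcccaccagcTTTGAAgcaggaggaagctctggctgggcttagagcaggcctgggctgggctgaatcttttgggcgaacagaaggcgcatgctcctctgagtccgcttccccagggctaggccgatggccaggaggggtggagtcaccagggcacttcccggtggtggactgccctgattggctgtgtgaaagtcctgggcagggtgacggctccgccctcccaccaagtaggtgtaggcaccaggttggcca
Kif11: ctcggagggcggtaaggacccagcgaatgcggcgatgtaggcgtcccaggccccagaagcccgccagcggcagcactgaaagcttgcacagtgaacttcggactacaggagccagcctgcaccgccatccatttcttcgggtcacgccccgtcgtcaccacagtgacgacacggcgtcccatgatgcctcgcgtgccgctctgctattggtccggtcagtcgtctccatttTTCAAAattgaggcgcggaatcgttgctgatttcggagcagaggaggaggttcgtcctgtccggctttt
Each window held 1 match, and TTTGAA occurred in 17.9% of 32851 promoters of the same length and in 17 of 71 promoters of 56 members. CACGTG, the core bound by lysosomal gene regulators, was in neither window and in 7.15% of all promoters, 3 of the members' 71 among them. A match here is a description of the letters only.

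Among the lipid, sterol and inositol enzymes, 8 of 12 members were tested and Lipa was the only one called in MRL/lpr and in MRL/lpr+MSC against MRL/mpj, where 5.79% and 3.43% of all genes were called. Plce1, a phospholipase C, had CPM values of 16.0, 16.5 and 14.6 in MRL/mpj, 24.1, 25.6 and 18.5 in MRL/lpr, and 19, 23.4 and 25.1 in MRL/lpr+MSC. The 6 lpr libraries were all above the controls, and the log2 fold changes were 0.53 (adjusted p = 0.0687) and 0.52 (adjusted p = 0.068). Lipo3, of a lipase cluster just below Fas, had 4.74, 4.0 and 4.95 CPM in MRL/mpj against 7.09, 6.59 and 6.29 in MRL/lpr (log2 fold change 0.56, adjusted p = 0.0618). Its MRL/lpr+MSC libraries, at 4.20, 5.20 and 5.66 CPM, overlapped the controls, and reads shared with near-identical Lipo genes could be split by the counting.

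Sgms1, a sphingomyelin synthase, had log2 fold changes of -0.30 (adjusted p = 0.12) and -0.31 (adjusted p = 0.0599), and Minpp1, an inositol polyphosphate phosphatase, had -0.21 and -0.15. Sgms1 and Minpp1 each share exon bases with another annotated gene, and the strand setting of the counting is not stated. Asah2, a ceramidase, had 0.12 and 0.24. The untested members of the group were Lipm, Lipo2, Ch25h and Cyp26a1. With no filter on low counts Lipm was called in MRL/lpr against MRL/mpj, on 3, 3 and 4 counts in MRL/mpj and 1, 0 and 0 in MRL/lpr.

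Among the immune checkpoint and cytokine signalling genes, 4 of 6 members were tested and none was called in any comparison by limma voom, against 5.79%, 3.43% and 0% of all genes. Cd274 encodes PD-L1, an interferon-inducible ligand that restrains T cells. It had 39, 62 and 32 counts in MRL/mpj, 336, 123 and 108 in MRL/lpr and 41, 61 and 84 in MRL/lpr+MSC. MRL/lpr lay above the controls in every library, with replicate 1 far above the others, and MRL/lpr+MSC overlapped them. The log2 fold change was 1.68 (SE 0.50, adjusted p = 0.0794) in MRL/lpr and 0.43 (SE 0.28, adjusted p = 0.406) in MRL/lpr+MSC. With limma-trend Cd274 was called in MRL/lpr (log2 fold change 1.61, adjusted p = 0.036).

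The 10 interferon-induced genes had summed levels of 22.2 to 24.5 CPM in MRL/mpj, 36.8 to 96.5 in MRL/lpr and 29.2 to 38.1 in MRL/lpr+MSC, and B cell markers (6 detected) had 7.13 to 22.5, 13.6 to 27.3 and 7.98 to 11.7 CPM. MRL/lpr replicate 1 was highest in both lists, as it was for Cd274, and their part in the Cd274 values was not tested. Pdcd1lg2, which encodes PD-L2, had 1, 0 and 0 counts in MRL/mpj, 11, 3 and 3 in MRL/lpr and 0, 1 and 3 in MRL/lpr+MSC, too few to test. Plgrkt, a plasminogen receptor next to Cd274, had 184 to 243 counts in MRL/mpj and 304 to 410 in MRL/lpr, with no overlap as CPM (log2 fold change 0.37, adjusted p = 0.0715). Stambpl1, a deubiquitinase next to Fas, and Rnls, a flavoprotein, had 0.02 and 0.12.

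Among the neuronal and glial genes, 10 of 11 members were tested and none was called by limma voom in any comparison, against 5.79%, 3.43% and 0% of all genes. Htr7 encodes a serotonin receptor coupled to cyclic AMP. It had CPM values of 6.64, 6.88 and 7.18 in MRL/mpj, 14.5, 7.71 and 26.8 in MRL/lpr, and 12.4, 12.5 and 21.5 in MRL/lpr+MSC. All 6 lpr libraries exceeded the controls, but MRL/lpr replicate 2 did so by little, and the log2 fold changes were 1.07 (SE 0.51, adjusted p = 0.211) and 1.13 (SE 0.26, adjusted p = 0.0563). Htr7 was called in MRL/lpr+MSC with limma-trend (adjusted p = 0.0337), with no filter (0.0449) and without MRL/lpr+MSC replicate 1 (0.0228) or 3 (0.0363), and in MRL/lpr without MRL/lpr replicate 2 (0.0345). Thalamic neuron markers (6 detected) summed to 174 to 222 CPM in MRL/mpj, 187 to 303 in MRL/lpr and 135 to 326 in MRL/lpr+MSC, with replicate 3 highest in both lpr groups, as for Htr7, and their part in the Htr7 values was not tested.

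Rbp4, the retinol carrier, had CPM values of 8.84, 6.23 and 16.7 in MRL/mpj, 9.05, 8.87 and 8.91 in MRL/lpr, and 4.46, 5.20 and 4.38 in MRL/lpr+MSC. Only the MRL/lpr+MSC libraries lay below the rest, with log2 fold changes of -1.01 (adjusted p = 0.188) against MRL/mpj and -0.93 (adjusted p = 0.921) against MRL/lpr. Leaving out 1 library gave -1.38 to -0.65 against MRL/mpj. MRL/mpj replicate 3 was highest for Rbp4, as it was for a list of liver-secreted proteins (351 CPM). In MRL/lpr+MSC, replicate 2 was highest for Rbp4 and replicate 3 for that list. The part of liver transcripts in the Rbp4 values was not tested. Slc16a12, a monocarboxylate transporter family member, had 5.19, 4.56 and 4.73 CPM in MRL/mpj. It had 5.17, 7.92 and 2.96 CPM in MRL/lpr and 1.71, 7.75 and 2.30 in MRL/lpr+MSC. Against MRL/mpj its log2 fold changes were 0.04 (adjusted p = 0.946) and -0.60 (adjusted p = 0.524). Replicate 2 was highest for Slc16a12 in both lpr groups, as it was for the choroid plexus markers. In MRL/mpj, replicate 1 was highest for Slc16a12 and lowest for those markers. The part of choroid plexus in the Slc16a12 values was not tested. Gldc, of glycine breakdown, had log2 fold changes of -0.27 and -0.24, and Atad1 had -0.15 in both comparisons, while Pank1, Ide and Cpeb3 lay between -0.18 and 0.09 in both.

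Of the mitosis and chromatin genes, 10 of 11 members were tested in MRL/lpr against MRL/mpj and 1, Kif11, was called, against 5.79% of all genes. For Kif20b, another mitotic kinesin, the log2 fold change was -0.02 (adjusted p = 0.976), and Hells, a chromatin remodeller of dividing cells, had 0.14 (adjusted p = 0.668). Hhex, a homeobox factor, had 0.89 (SE 0.37, adjusted p = 0.155) in MRL/lpr and 0.07 (SE 0.45, adjusted p = 0.947) in MRL/lpr+MSC, each against MRL/mpj. In the same 2 comparisons Pcgf5, a Polycomb subunit, had 0.54 (adjusted p = 0.147) and 0.59 (adjusted p = 0.199). Rpp30, an RNase P subunit, ranged from 9.78 to 11.4 CPM over the controls and from 12.1 to 15.0 over the MRL/lpr libraries (log2 fold change 0.36, adjusted p = 0.117).

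Acta2, smooth muscle actin, is the member nearest to Fas, 0.05 Mb from its start. It had CPM values of 28.0, 18.5 and 21.2 in MRL/mpj, 9.30, 18.0 and 13.5 in MRL/lpr, and 9.59, 15.4 and 9.99 in MRL/lpr+MSC. All 6 lpr libraries lay below the controls, and the log2 fold changes were -0.77 (SE 0.26, adjusted p = 0.109) and -0.95 (SE 0.23, adjusted p = 0.0639). Smooth muscle and pericyte markers (6 detected) summed to 157 to 203 CPM in MRL/mpj, 149 to 180 in MRL/lpr and 146 to 161 in MRL/lpr+MSC. Of these markers, 2 had a positive log2 fold change in MRL/lpr (median -0.29) and 1 in MRL/lpr+MSC (median -0.52). Myh11, smooth muscle myosin, had 34.6, 20.2 and 23.9 CPM in MRL/mpj and 10.9 to 18.0 CPM in the 6 lpr libraries, below every control as Acta2 was. Pdgfrb went the other way, with all 6 lpr libraries above every control. The remaining markers, Rgs5, Des, Cnn1 and Tagln, overlapped the controls. The part of these markers in the Acta2 values was not tested.

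Across the members, 12 of 51 lay wholly above the controls in MRL/lpr and 7 wholly below, against 19.4% and 18.6% of all genes tested. With MRL/lpr+MSC these counts were 9 and 7, against 15.2% and 14.4%. Over all 6 libraries that carry lpr, 6 members (among them Lipa, A830019P07Rik, Htr7, Rpp30 and Plce1) lay above every MRL/mpj library and 5 (Cstf2t, Sgms1, Minpp1, Atad1 and Acta2) below, against 9.87% and 9.05% of 15970 genes. The members' shares were 11.8% and 9.80%, near the background.

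**Figure D3:**
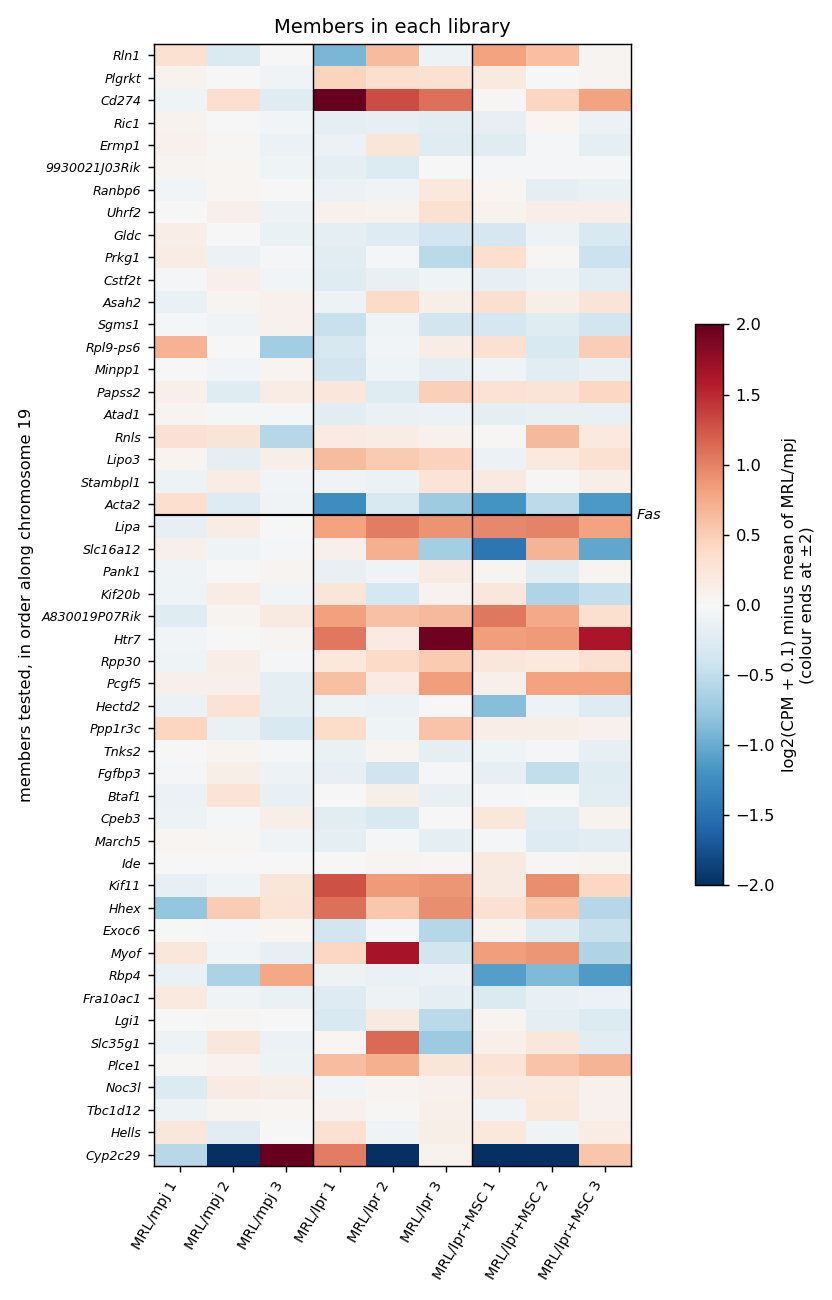
Level of the tested members, with 1 left out (rows, in chromosomal order, with the position of Fas as a line) in the 9 libraries (columns), as log2(CPM + 0.1) minus the mean of the MRL/mpj libraries, with colours ending at ±2. In the 6 lpr libraries Lipa is red, Plce1 red to pale red and Acta2 blue to pale blue, and most rows stay pale.

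Between MRL/lpr+MSC and MRL/mpj, 1 of 51 members, Lipa, was called by limma voom, against 3.43% of 16196 genes. A change of at least 1.5-fold was seen in 8 members, against 15.3% of all genes, and 11 were under an unadjusted p of 0.05, against 22.9%. The members' median log2 fold change was 0.03, and that of all genes was 0.01. Between MRL/lpr+MSC and MRL/lpr, 0 of 52 members and 0 of 16758 genes (0%) were called by limma voom, and limma-trend also called none. At an unadjusted p under 0.05 there were 4 members, Plgrkt, Cd274, Lipo3 and Rbp4, against 3.86% of all genes, and all 4 were lower in MRL/lpr+MSC. Of the 52, 7 had changes of at least 1.5-fold, against 8.4% of all genes, and 1 member lay wholly above the MRL/lpr libraries and 4 wholly below, against 4.27% and 5.71%. The lowest adjusted p was 0.921. For Lipa the difference was 0.02 on the log2 scale with a 95% interval from -0.20 to 0.24, which bounds the ratio between 0.869 and 1.18. For Cd274 the interval ran from -2.38 to -0.10.

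Along chromosome 19, 3 of 64 genes of any biotype starting within 5 Mb of the Fas start were called in MRL/lpr against MRL/mpj (4.69%), the third being Ifit1, left out of the members by name. From 15 to 5 Mb below Fas, 6 of 46 genes were called (13.0%), and from 5 to 15 Mb above it 0 of 117. The whole chromosome had 3.54%. For MRL/lpr+MSC against MRL/mpj these shares were 3.13%, 8.70%, 0.885% and 2.67%.

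**Figure D4:**
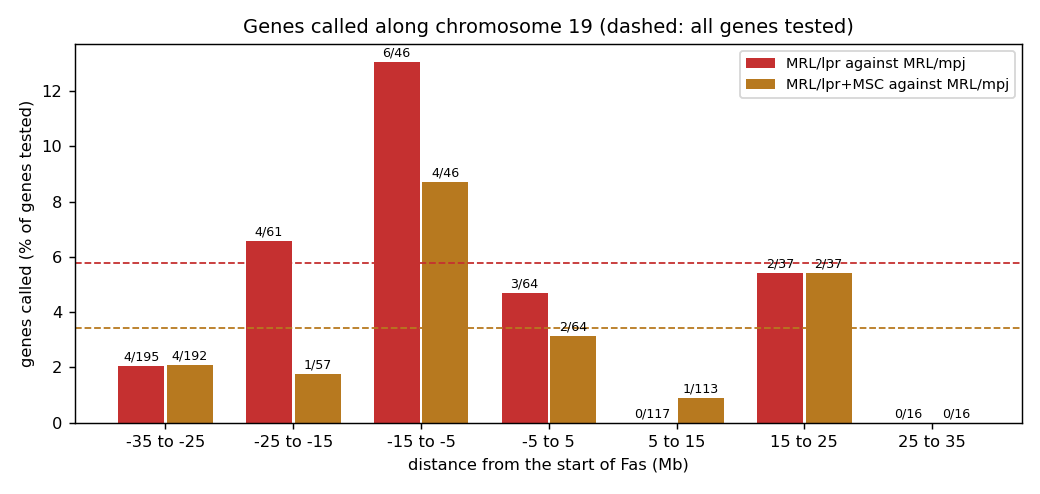
Percent of tested genes called (vertical axis, from 0) in bins of 10 Mb by distance from the Fas start (horizontal axis), with the numbers called and tested above each bar. Dashed lines give the share over all genes, 5.79% and 3.43%. In the bin around Fas, each bar lies below its own line.

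Among the members, the hepatocyte genes Mbl2 and Cyp2c29 were unevenly spread over libraries. Mbl2, a secreted lectin made in liver, had 3, 1 and 46 counts in MRL/mpj, 13, 0 and 6 in MRL/lpr and 0, 0 and 10 in MRL/lpr+MSC. Cyp2c29, a liver cytochrome P450, had 14, 2 and 201, then 66, 0 and 27, then 0, 0 and 37. MRL/mpj replicate 3 was highest for both. A list of 6 liver-secreted proteins, chosen after values were seen, had summed CPM values of 10.9, 1.85 and 351 in MRL/mpj, 112, 1.81 and 39.5 in MRL/lpr and 0.207, 0.279 and 51.7 in MRL/lpr+MSC. The libraries with most Mbl2 and Cyp2c29 were those with most of this list within each group, and the list's part in their values was not tested. Cyp2c29 had log2 fold changes of -1.02 (SE 2.27, adjusted p = 0.791) and -3.08 (SE 2.52, adjusted p = 0.522), and its reads may be shared with other Cyp2c genes.

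**Figure D5:**
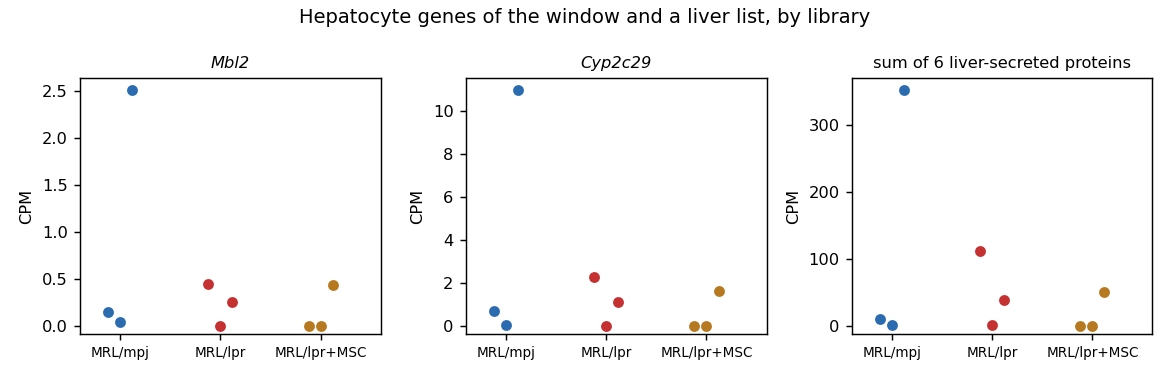
Read level in CPM (vertical axis, from 0) of Mbl2, Cyp2c29 and the sum of 6 liver-secreted proteins in each library (points), by group. MRL/mpj replicate 3 is highest in all panels, at 351 CPM for the list.

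Among the members of low count, Pde6c, a cone photoreceptor phosphodiesterase, had 79 counts in MRL/lpr replicate 1 and 0 to 7 in each other library. Ch25h, which makes 25-hydroxycholesterol, had 16, 14 and 5 counts in MRL/mpj, 8, 9 and 1 in MRL/lpr and 0, 10 and 2 in MRL/lpr+MSC. Cep55, of the cytokinetic midbody, had 8, 4 and 8, then 21, 17 and 8, then 1, 11 and 3, and its log2 fold change in MRL/lpr+MSC against MRL/lpr was -1.65 (SE 0.71, limma voom adjusted p = 0.921). The rest (Insl6, A1cf, Lipo2, Lipm, Ankrd1, Cyp26a1 and Ffar4) had at most 16 counts in any library, and did not pass the filter.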

How the data were processed

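Hippocampal RNA was sequenced in 9 libraries. The authors deposited raw counts per gene and FPKM values per library. The paper gives STAR and HTSeq for alignment and counting, while the submitters' processing notes name TopHat2, with build GRCm38. FPKM values as deposited followed the count columns within 1% for 13655 genes. Positions and biotypes came from GENCODE M21, which matched 47224 of 47643 genes, and the strand setting of the counting is not stated. The members and gene lists were chosen with earlier results of these data known. Counts were scaled by a trimmed mean of M-values (30% and 5% trims) and tested with limma 3.58.1 voom and robust empirical Bayes in R 4.3.3, with the 6 libraries of each comparison. Genes entered with a CPM equal to 10 counts in a median library in at least 3 libraries and 15 counts in all. Adjusted p-values are Benjamini-Hochberg over all genes tested, and a call needed 0.05 and 1.5-fold. The planned edgeR quasi-likelihood test was not run, and limma voom took its place, because the matrix could not be registered as counts. The test was run on simulated data in which all genes had the same dispersion and libraries did not differ in tissue content. That run therefore does not show how the test performs with the spread of these libraries. Alternatives were limma-trend, median-of-ratios scaling, other filters, 1 joint fit of all 9 libraries, a null of 1.5-fold, the replicate number as a block and leaving out each library. Named members are those called, the 3 nearest Fas on each side, the 5 of highest level, those at the minimum, and members of the lists. Counting error sets the floor of 3 counts. Within groups, libraries differed by more than sampling noise (chi-square per gene at least 10.7). The values of 1 member are not reported here.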

Additional observations from a re-analysis of the deposited data

How the results depend on the processing

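Of 702 repeats of named members' fold changes under other settings, 634 kept their direction and side of the threshold, 12 came to pass it, 10 ceased to and 46 changed sign. Lipa kept its call in MRL/lpr+MSC under 12 of 13 settings and in MRL/lpr under 11, and Kif11 kept its call under 6. Members called in MRL/lpr against MRL/mpj numbered 3 with limma-trend (added after seeing the data; Cd274 joined), 0 in the test against a 1.5-fold change and 1 within 2 Mb of Fas. Leaving out 1 library gave 0 members and 135 genes (without MRL/mpj replicate 3) to 5 members and 1483 genes (without MRL/lpr replicate 2, where Acta2, Htr7 and Pcgf5 joined Lipa and Kif11). The test against a 1.5-fold change called 104 genes. In MRL/lpr+MSC against MRL/mpj there were 2 members with limma-trend and 2 without a filter (Htr7 joined Lipa in both) and 0 in the test against 1.5-fold (100 genes), and leaving out 1 library gave 1 to 4 members and 158 (without MRL/mpj replicate 3) to 1346 genes (without MRL/lpr+MSC replicate 1, where Htr7, Pcgf5 and Plce1 joined Lipa). With the replicate block there were 280 genes there (Lipa alone among members) and 1333 in MRL/lpr against MRL/mpj, where the 2 members called were Lipa and Cd274, and Kif11 was not (adjusted p = 0.0602). Without a filter Kif11 was not called either (0.0522), and Lipm was. The labels' replicate numbers are only numbers: same-numbered libraries correlated at -0.21 to 0.35, and 3 or 4 of 6 libraries correlated best with their own number. Between MRL/lpr+MSC and MRL/lpr, no setting called a gene. Near-zero log2 fold changes there changed sign: Tnks2 -0.0031 without a filter and -0.00066 with all 9 libraries, Atad1 -0.0038 without a filter, -0.00053 at 1 CPM and -0.0024 with all 9, and Htr7 -0.048 with the block. Leaving out 1 library changed signs with these ranges. In MRL/lpr against MRL/mpj they were Stambpl1 -0.092 to 0.099, Slc16a12 -0.26 to 0.39, Pank1 -0.099 to 0.062, Ermp1 -0.17 to 0.073 and Rbp4 -0.42 to 0.29. Against MRL/mpj, those of MRL/lpr+MSC were Pank1 -0.093 to 0.043 and Hhex -0.33 to 0.42. Between MRL/lpr+MSC and MRL/lpr they were Lipa -0.037 to 0.074, Acta2 -0.45 to 0.046, Pank1 -0.083 to 0.084, Tnks2 -0.043 to 0.071, Lgi1 -0.077 to 0.28, Atad1 -0.027 to 0.026, Ermp1 -0.22 to 0.019, Htr7 -0.36 to 0.49, Plce1 -0.13 to 0.094 and Pcgf5 -0.13 to 0.26. The cause of these changes was not tested. The DESeq2 Wald test and edgeR quasi-likelihood test planned were not run. The 11 untested members did not reach the level of the filter in at least 3 libraries of any comparison. Whether more depth would bring them in was not tested.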
